A study of Mus musculus with 8 samples.

Results

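The genes described here encode 4 systems of axon guidance cues and receptors: ephrins and Eph receptors, Slits and Robo receptors, netrins with their DCC and UNC5 receptors, and the repulsive guidance molecules that bind neogenin. The members were taken from a list of gene symbols, by gene family and with no threshold on their measured levels. That list was chosen with earlier results of these data known. Of 41 listed genes, 39 lay on a probe set that the platform annotation pairs with a single gene symbol, of 19938 such genes on the array. *Ephb2* and *Ntng2* were not analysed here. *Ephb2* had no entry in the annotation used, and *Ntng2* appeared only on a probe set shared with another symbol. The 39 genes comprised 23 receptors and 16 ligands.

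The study profiled 4 groups of mouse embryonic midbrain samples with 2 arrays (Affymetrix Mouse Gene 1.0 ST) per group, 8 arrays in all. The mdDA (mesodiencephalic dopaminergic) domain and the lateral domain were cut by laser microdissection from the midbrain of E12.5 *BAT-gal* embryos on the B6D2F1 (mixed) background, with tissue of 5 embryos pooled per domain. *BAT-gal* is a transgene in which LEF1/TCF binding sites and a minimal promoter drive LacZ, so that cells responding to WNT/b-catenin signaling make b-GAL. The mdDA domain was outlined on sections stained for PITX3 and b-GAL, and the lateral domain, at the border of the alar and basal plates, served as its control. The other 2 groups were GFP+ mdDA neurons sorted by flow cytometry from E13.5 and from E14.5 Pitx3GFP/+ embryos on a C57BL/6 x 129/Ola (mixed) background, in which 1 *Pitx3* allele carries GFP. Sex was not determined, and the number of embryos behind the sorted samples is not given in the sources used here.

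The 2 arrays of a group are technical replicates, so the standard errors and p-values below do not measure the spread between embryos. Levels are the deposited log2 values, where a difference of 1 is a 2-fold change, and a value can be compared between arrays for the same gene but not between genes. The array medians lay between 4.39 and 4.60. A gene is called higher or lower where the limma p-value, adjusted by Benjamini-Hochberg over all 35556 probe sets, was below 0.1.

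The labels were checked against marker genes, in lists chosen with earlier results of these data known. The mean level of 7 mdDA neuron markers, among them *Th* and *Pitx3*, was 5.28 in the lateral domain, 8.17 in the mdDA domain, 9.25 in E13.5 neurons and 9.19 in E14.5 neurons. Of these 7 only *Pitx3* was not called between the domains, at 6.72 against 7.39 (log2 0.67, limma adjusted p = 0.228). The study lists *Pitx3* among the transcripts significantly enriched in the mdDA domain. It also lists *Shh* and *Ferd3l*, which were not called here either (log2 0.95 and 0.61, limma adjusted p = 0.151 and 0.204). The mean of 7 lateral midbrain markers was 8.14 in the lateral domain and 4.88 to 5.44 in the other groups, with members that departed from it. *Gad2*, a marker of GABAergic neurons, was 8.34 in the lateral domain, 5.30 in the mdDA domain and 7.75 and 7.90 in the sorted neurons, and *Pou4f1* was 8.51 in the lateral domain, 7.80 in the mdDA domain and 5.07 and 4.72 in the sorted neurons. The mean of 8 neuron markers was 8.61 in the lateral domain, 9.54 in the mdDA domain and 9.64 and 9.49 in the sorted neurons. The mean of 9 neural progenitor markers was 8.44 in the lateral domain, 7.32 in the mdDA domain and 5.83 and 6.05 in the sorted neurons. The mean of 4 erythroid markers was 8.12 and 8.13 in the dissected domains against 4.17 and 4.23 in the sorted neurons. The dissected samples are pieces of tissue that can hold several cell types, and in bulk samples fewer cells of a type and less RNA per cell cannot be told apart.

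Growing axons steer by cues that attract or repel them. Ephrins are held on the cell surface, ephrin-A ligands by a lipid anchor and ephrin-B ligands by a transmembrane segment, and they bind mainly EphA and EphB receptor tyrosine kinases, respectively. Slits are secreted repellents of the floor plate that act through ROBO1 and ROBO2, whereas ROBO3 is best known from axons that cross the midline. Netrin-1, also made by the floor plate, attracts axons through DCC and repels them through UNC5 receptors, while the netrin-G proteins are membrane-anchored and do not bind DCC. Dopaminergic neurons arise in the midbrain floor plate and send their axons rostrally to the striatum, and Slit, netrin and ephrin signals have been described along that route.

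At E12.5 the Slit genes, *Ntn1*, *Ntng1*, *Robo2*, *Robo3*, *Unc5a*, *Unc5c*, *Epha6* and *Efnb2* were higher in the mdDA domain than laterally, and *Epha4*, *Ephb1*, *Efna2* and *Unc5b* were lower. Thus 11 members were called higher and 4 lower, 15 of 39 (38.5%), where 2.62% of all probe sets were called (1.52% higher and 1.10% lower) and 2.82% of genes. Among probe sets with 1 gene symbol alone, 17 members were higher and 9 lower, where 11.5% of those probe sets were called. Among the brighter 17778 probe sets alone, 11 members were higher and 6 lower, where 7.94% of those probe sets were called. Dim members, such as *Epha6*, were left out there, so that count is not over all 39. Of the 8 neuron markers 3 were called higher as well, and of the 9 progenitor markers 5 were called lower, and their part in the members' values was not tested. The median absolute log2 difference was 0.703 over the members and 0.165 over all probe sets. Of the 16 ligands 6 were higher and 1 lower, and of the 23 receptors 5 were higher and 3 lower.

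**Figure D1:**
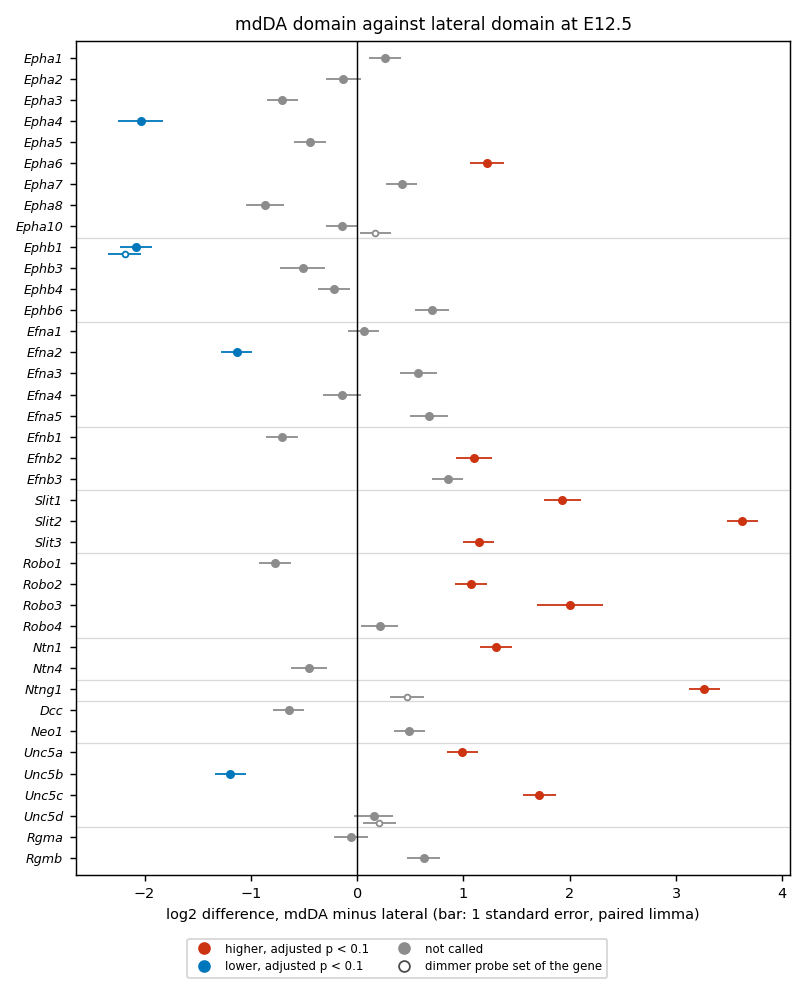
Log2 difference between the mdDA domain and the lateral domain at E12.5 (x axis) for each of the 39 genes (y axis, grouped by family). Points are the limma estimates from 2 arrays per domain, bars are 1 standard error, red points were called higher, blue points lower and grey points neither, and open points are the dimmer probe set of a gene. *Slit2* lay farthest to the right at 3.62 and *Ephb1* farthest to the left at -2.08.

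All 3 Slit genes, which encode secreted ligands of the Robo receptors, were higher in the mdDA domain. *Slit2* read 5.88 and 5.84 on the lateral arrays and 9.47 and 9.49 on the mdDA arrays, a 12.3-fold difference (log2 3.62 ± 0.15, SE, limma adjusted p = 0.0224). It had the largest difference among the members in either direction, and its 2 arrays lay close together in each domain. *Slit1* read 5.91 and 5.85 in the lateral domain and 7.65 and 7.98 in the mdDA domain, 3.81-fold higher (log2 1.93 ± 0.17, limma adjusted p = 0.0453). *Slit3* read 5.75 and 5.65 against 6.95 and 6.74, 2.21-fold higher (log2 1.14 ± 0.15, limma adjusted p = 0.0720). For each Slit gene the arrays of the 2 domains did not overlap, which held for most members, called or not.

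The 250 bases before the RefSeq start of *Slit2* and *Slit3* (build GRCm38.p6) are shown because both ligands were higher in the mdDA domain, printed 5′ to 3′ on the strand of the gene with motif matches in capitals. The window of *Slit2*, chr5:47982905-47983154 on the plus strand, holds TATAAA with its first base 28 bases before the start, and that of *Slit3*, chr11:35121206-35121455 on the plus strand, holds none of the motifs searched.
Slit2: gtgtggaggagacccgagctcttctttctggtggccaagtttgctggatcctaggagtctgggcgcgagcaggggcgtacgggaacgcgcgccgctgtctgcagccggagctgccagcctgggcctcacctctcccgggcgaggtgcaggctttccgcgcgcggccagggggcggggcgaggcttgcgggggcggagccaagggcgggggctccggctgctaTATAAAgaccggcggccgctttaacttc
Slit3: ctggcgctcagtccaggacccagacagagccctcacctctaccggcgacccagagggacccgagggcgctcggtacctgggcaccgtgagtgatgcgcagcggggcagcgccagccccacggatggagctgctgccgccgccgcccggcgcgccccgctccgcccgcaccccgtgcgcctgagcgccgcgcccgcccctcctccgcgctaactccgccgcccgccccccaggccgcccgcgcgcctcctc
Both windows are rich in G and C, 69.6% and 78.8%, against a median of 52.4% over all 32851 windows and of 64.6% over the 42 windows of the member genes. Of the listed genes 35 had a window. TATAAA occurred in 12.4% of all windows and among the members in those of *Efnb2*, *Rgmb* and *Slit2*. Of the forms of the LEF1/TCF site that the study describes, only CTTTGAT was searched. CTTTGAT occurred in 3.21% of all windows, and TGTTTAC, a FOXA core, in 3.17%. Neither was found in a member window, which says only that these letters are not within those bases. TAATTA, a homeodomain core, occurred in 4.84% of all windows and in those of *Efna1*, *Epha5* and *Robo3*. AGGTCA, bound by nuclear receptors, occurred in 14.0% of all windows and in those of *Epha2*, *Ntn4* and *Robo4*. Both strands were searched, and the motifs were chosen after the sequences had been seen.

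Of the 4 Robo receptors, *Robo2* and *Robo3* were higher in the mdDA domain. *Robo2*, a receptor for Slit ligands, read 6.67 and 6.86 in the lateral domain and 7.81 and 7.85 in the mdDA domain, 2.10-fold higher (log2 1.07 ± 0.15, limma adjusted p = 0.0806). *Robo3*, the receptor of commissural axons, read 5.45 and 4.55 against 6.88 and 7.13, 4.01-fold higher (log2 2.00 ± 0.31, limma adjusted p = 0.0969), a call lost under repeated quantile normalization. The lateral arrays of *Robo3* lay 0.90 apart on the log2 scale, and both were below the mdDA arrays. *Robo1*, the other Slit receptor of neurons, was 10.23 and 10.21 in the lateral domain and 9.36 and 9.54 in the mdDA domain, a log2 difference of -0.77 that did not pass (limma adjusted p = 0.143). *Robo4*, known from blood vessels, was 4.28 and 4.38 against 4.68 and 4.41, near the median of the arrays, and was not called. Markers of other ventral midbrain neurons stood beside these values. *Isl1*, a transcription factor of oculomotor neurons, read 4.00 and 4.52 in the lateral domain and 5.52 and 6.05 in the mdDA domain and was called higher, the only called gene of the 3 measured oculomotor and red nucleus markers. The mean of those 3 markers ranged from 3.73 to 3.93 on the lateral arrays and from 4.50 to 4.58 on the mdDA arrays. Their part in the *Robo3*, *Slit3* and *Unc5c* values was not tested.

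Among the netrins, *Ntn1* and *Ntng1* were higher in the mdDA domain and *Ntn4* was not called. *Ntn1*, the attractant of the floor plate, read 6.79 and 6.82 in the lateral domain and 8.16 and 8.04 in the mdDA domain, 2.46-fold higher (log2 1.30 ± 0.15, limma adjusted p = 0.0629). *Ntng1*, the membrane-anchored netrin-G1, read 4.75 and 5.03 against 7.98 and 8.33, 9.60-fold higher (log2 3.26 ± 0.15, limma adjusted p = 0.0224). The 2 probe sets of *Ntng1* disagreed in size. The dimmer probe set read 5.54 and 5.70 in the lateral domain and 6.14 and 6.05 in the mdDA domain, a log2 difference of 0.47 (limma adjusted p = 0.322). *Ntn4*, a secreted netrin, was at 5.98 and 6.37 in the lateral domain and 5.72 and 5.73 in the mdDA domain (log2 -0.45, limma adjusted p = 0.378). The floor plate markers moved with *Ntn1* and the Slit genes: the mean of the 6 measured was 4.84 in the lateral domain and 6.82 in the mdDA domain, with 4 of 6 called higher.

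**Figure D2:**
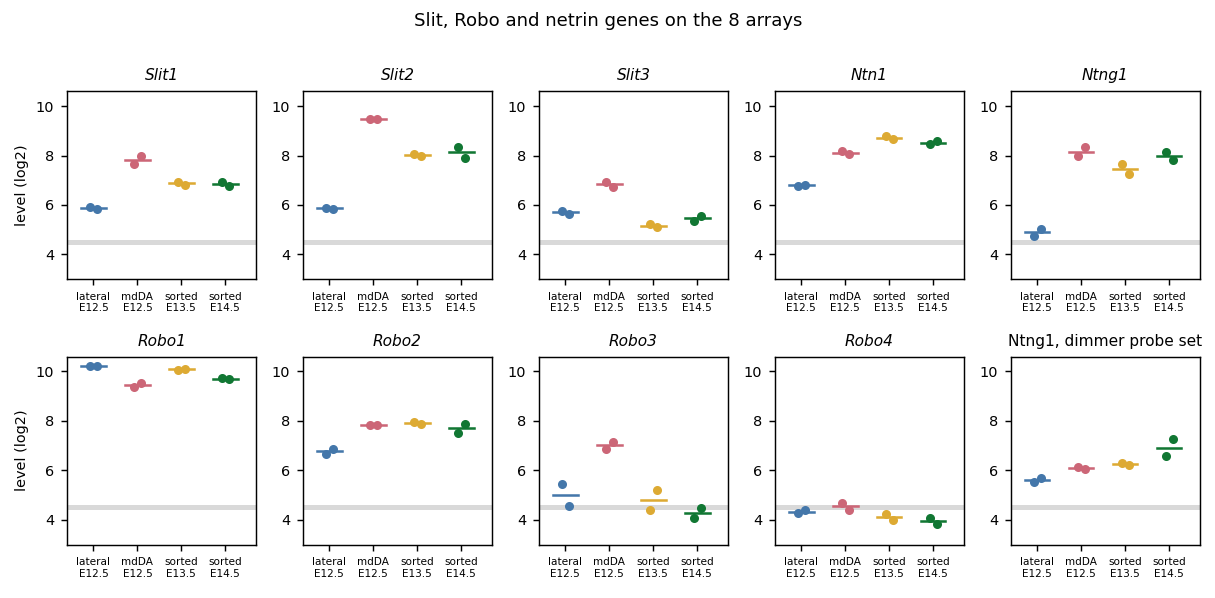
Log2 level (y axis) of the Slit, Robo and netrin genes on each of the 8 arrays, by group (x axis). Points are single arrays, lines are group means of 2 arrays, and the grey band spans the array medians from 4.39 to 4.60. *Slit1*, *Slit2*, *Slit3* and *Robo3* were highest in the mdDA domain, while *Ntn1* was highest in the sorted neurons.

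The netrin receptors differed in direction. *Unc5c*, a receptor for repulsion by netrin-1, read 4.11 and 4.18 in the lateral domain and 5.91 and 5.81 in the mdDA domain, 3.28-fold higher (log2 1.71 ± 0.15, limma adjusted p = 0.0453). Its lateral values lay below the array medians. *Unc5a*, of the same family, read 5.26 and 5.24 against 6.26 and 6.22, 1.98-fold higher (log2 0.99 ± 0.15, limma adjusted p = 0.0881). *Unc5b*, known also from endothelial cells, ran the other way at 6.14 ± 0.03 against 4.95 ± 0.08 (SD, n = 2 arrays), 2.29-fold lower (log2 -1.19 ± 0.15, limma adjusted p = 0.0700). None of these 3 receptors had overlapping arrays, as was so for most members, called or not. The mean of 9 endothelial markers was 4.45 in the lateral domain and 4.54 in the mdDA domain with none of the 9 called. The mean of the 9 progenitor markers was 8.44 and 7.32, with 5 called lower and a median log2 difference of -1.12. The part of these cells in the *Unc5b* difference was not tested. *Unc5d* was at 5.38 and 5.24 against 5.30 and 5.63, with overlapping arrays. *Dcc*, the receptor for attraction by netrin-1, read 9.90 and 9.92 in the lateral domain and 9.31 and 9.21 in the mdDA domain, a log2 difference of -0.65 that did not pass (limma adjusted p = 0.186). *Neo1*, which encodes neogenin, was at 8.40 and 8.49 against 8.88 and 9.00 (log2 0.49, limma adjusted p = 0.277). Its ligand genes *Rgma* and *Rgmb* were not called either, with log2 differences of -0.06 and 0.63.

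*Epha4* and *Ephb1* showed the largest negative differences of all members. *Epha4*, a receptor that binds ligands of both ephrin classes, read 7.56 and 8.23 in the lateral domain and 5.84 and 5.87 in the mdDA domain, 4.11-fold lower (log2 -2.04 ± 0.21, limma adjusted p = 0.0596). *Ephb1*, a receptor for ephrin-B ligands, read 7.63 and 7.48 against 5.64 and 5.30, 4.23-fold lower (log2 -2.08 ± 0.15, limma adjusted p = 0.0385). The dimmer probe set of *Ephb1* gave a similar difference between the domains, with 6.96 and 7.21 against 4.87 and 4.93 (log2 -2.19, limma adjusted p = 0.0365). *Epha6* was the other EphA receptor called, at 3.83 and 3.74 in the lateral domain and 4.91 and 5.09 in the mdDA domain, 2.33-fold higher (log2 1.22 ± 0.16, limma adjusted p = 0.0725). Its lateral values lay below the array medians.

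The windows of the 2 receptors that were lowest relative to the lateral domain are shown in the same way, *Epha4* at chr1:77515089-77515338 and *Ephb1* at chr9:102354694-102354943, both on the minus strand. Capitals mark ATTGG, which is CCAAT on the opposite strand, with its first base 88 bases before the start of *Epha4* and 100 and 65 bases before that of *Ephb1*.
Epha4: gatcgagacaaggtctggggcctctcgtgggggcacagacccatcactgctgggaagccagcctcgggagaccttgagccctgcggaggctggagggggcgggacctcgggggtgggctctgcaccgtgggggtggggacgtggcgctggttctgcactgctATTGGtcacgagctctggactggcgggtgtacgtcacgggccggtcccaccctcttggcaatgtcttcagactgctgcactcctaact
Ephb1: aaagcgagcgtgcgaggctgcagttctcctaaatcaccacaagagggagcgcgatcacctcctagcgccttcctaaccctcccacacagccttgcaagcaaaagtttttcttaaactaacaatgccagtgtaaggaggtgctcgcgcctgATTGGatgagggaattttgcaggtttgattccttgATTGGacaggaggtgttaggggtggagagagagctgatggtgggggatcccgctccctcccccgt
CCAAT or its complement occurred in 33.8% of all windows and in those of 15 listed genes, among them receptors that were higher in the mdDA domain (*Epha6*) and receptors that were not called (*Epha7*, *Epha8*, *Ephb4*).

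The other 7 EphA receptors were not called between the domains, with log2 differences from -0.87 for *Epha8* to 0.42 for *Epha7*. *Epha3* read 6.44 and 6.76 in the lateral domain and 5.68 and 6.11 in the mdDA domain, a difference of -0.70 that did not pass (limma adjusted p = 0.157). Of the 4 EphB receptors analysed only *Ephb1* passed. *Ephb6*, which lacks kinase activity, was at 4.78 and 4.95 against 5.63 and 5.50, a log2 difference of 0.70 (limma adjusted p = 0.187).

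Among the ephrins, *Efnb2* and *Efna2* passed in opposite directions. *Efnb2*, a transmembrane ligand of EphB receptors and of EPHA4, read 6.01 and 6.05 in the lateral domain and 7.28 and 6.97 in the mdDA domain, 2.14-fold higher (log2 1.10 ± 0.17, limma adjusted p = 0.0923), a call lost under repeated quantile normalization. *Efna2*, a lipid-anchored ligand of EphA receptors, read 7.88 and 7.80 against 6.77 and 6.64, 2.20-fold lower (log2 -1.13 ± 0.15, limma adjusted p = 0.0720). The other 2 ephrin-B genes missed the threshold with opposite signs. *Efnb3* read 6.01 and 5.97 against 6.86 and 6.82 (log2 0.85, limma adjusted p = 0.114), and *Efnb1* read 6.84 and 6.79 against 6.24 and 5.98 (log2 -0.71, limma adjusted p = 0.170). The other 4 ephrin-A genes had log2 differences from -0.14 to 0.68, of which none passed.

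The test between the domains rested on 4 arrays with 1 residual degree of freedom, so that the standard errors were drawn largely from the spread over all probe sets. With 1 lateral or mdDA array left out the block had to be dropped too, since a paired fit of 3 arrays leaves no residual degree of freedom. A domain then rested on 1 array, and most calls were lost, among the members and over all probe sets alike. None of the called differences changed sign. The log2 difference of *Slit2* ranged from 3.60 to 3.64 over these 4 fits, and that of *Ntng1* from 3.09 to 3.44.

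In sorted mdDA neurons *Robo3*, the Slit genes, *Epha7*, *Unc5c*, *Epha3*, *Ephb4*, *Unc5b* and *Robo4* were lower than in the mdDA domain, and *Epha5*, *Efnb3*, *Ephb1*, *Unc5d*, *Ntn1* and *Robo1* were higher. Of the 39 members 6 were called higher and 10 lower, 16 in all (41%), where 18.4% of all probe sets (8.53% higher and 9.84% lower) and 17.6% of genes were called. Among the brighter 17778 probe sets alone, 6 members were higher and 8 lower, where 32.5% of those probe sets were called. Dim members, such as *Ephb4* and *Robo4*, were left out there, so that count is not over all 39. The median absolute difference was 0.407 over the members and 0.239 over all probe sets. Isolation, stage, strain and genotype (Pitx3GFP/+ against *BAT-gal*) differ together between these groups and cannot be told apart. The mdDA arrays also enter the comparison of the domains, so that a member high on those arrays is raised in the former comparison and lowered in this one. The median difference over all probe sets was -0.08, and it was 0.12 after the arrays were centred on their medians. With that centring 11 members were higher and 8 lower, where 20.7% of all probe sets were called and 75.8% of those calls were higher.

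**Figure D3:**
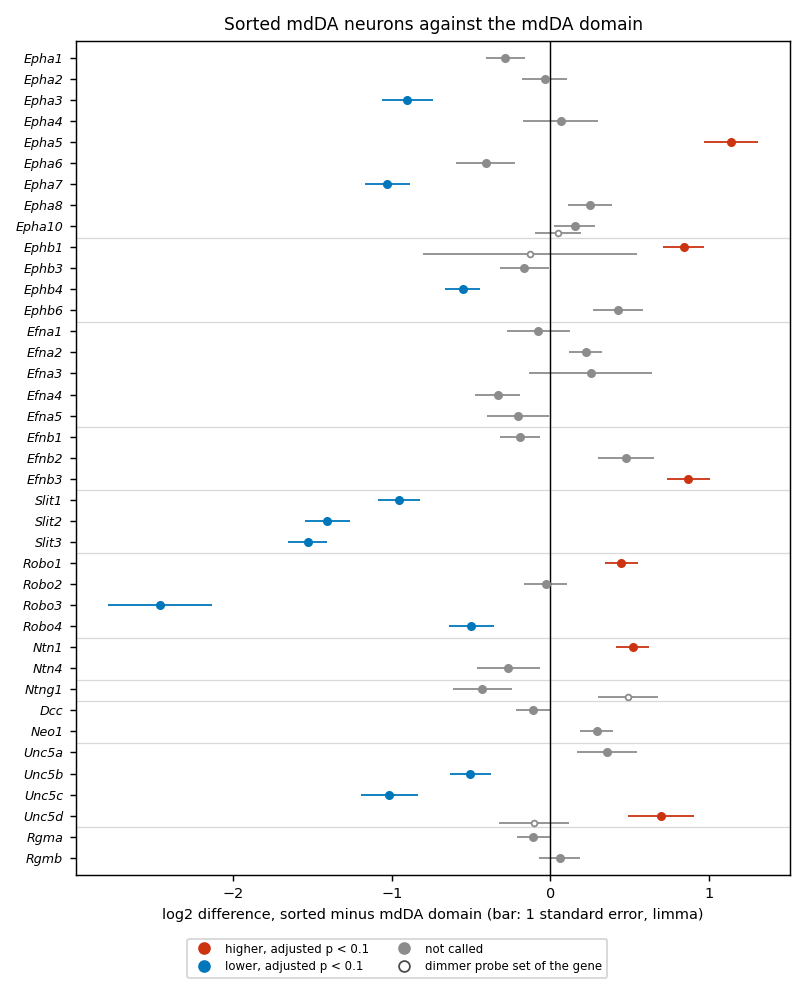
Log2 difference between the mean of both groups of sorted mdDA neurons and the mdDA domain (x axis) for each of the 39 genes (y axis, grouped by family). Points are limma estimates over 8 arrays, bars are 1 standard error, and colours are as in the plot of the 2 domains. *Robo3* lay farthest to the left at -2.46 and *Epha5* farthest to the right at 1.14.

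The 3 Slit genes were lower in the sorted neurons than in the mdDA domain. *Slit2* read 8.05 and 7.97 at E13.5 and 8.36 and 7.92 at E14.5, 2.65-fold below the mdDA domain (log2 -1.41 ± 0.14, limma adjusted p = 0.00500). All 4 sorted arrays lay below both mdDA arrays and above both lateral arrays. *Slit1* read 6.92 and 6.82 at E13.5 and 6.94 and 6.75 at E14.5, 1.94-fold below the mdDA domain (log2 -0.95 ± 0.13, limma adjusted p = 0.0105) and likewise between the 2 dissected domains. *Slit3* read 5.22 and 5.12 at E13.5 and 5.34 and 5.57 at E14.5, 2.89-fold below the mdDA domain (log2 -1.53 ± 0.12, limma adjusted p = 0.00258). In the deposited values the sorted arrays of *Slit3* lay below those of the lateral domain as well, unlike *Slit1* and *Slit2*. The nearest arrays read 5.57 (E14.5) and 5.65 (lateral), closer than the array medians of the sorted (4.39) and lateral (4.60) arrays. Sorted and lateral arrays were not tested against each other. Of the 6 floor plate markers measured, *Corin* and *Spon1* were called lower in the sorted neurons (log2 -1.97 and -1.26), *Foxa1* was called higher (log2 0.70), and *Foxa2*, *Shh* and *Ferd3l* were not called (log2 -0.05, 0.32 and 0.29), with a median of 0.12 over the list. All 9 neural progenitor markers were called lower. The part of these cells in the Slit values was not tested.

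*Robo3* had the largest difference of all members in this comparison. It read 4.40 and 5.21 at E13.5 and 4.07 and 4.49 at E14.5, 5.51-fold below the mdDA domain (log2 -2.46 ± 0.33, limma adjusted p = 0.00949). These values overlapped those of the lateral domain and lay around the array medians. Of the 3 oculomotor and red nucleus markers *Isl1* was called lower (log2 -1.87), and *Phox2a* and *Chat* were not called (log2 -0.37 and -0.27). *Pou4f1*, a transcription factor of the red nucleus and of other midbrain neurons, was the only one of the 7 lateral midbrain markers called lower (log2 -2.91), while *Gad2*, *Gata3* and *Pax7* were called higher (log2 2.53, 0.88 and 0.53). Their part in the *Robo3* difference was not tested. *Robo1* read 10.06 and 10.10 at E13.5 and 9.73 and 9.68 at E14.5, 1.36-fold above the mdDA domain (log2 0.45 ± 0.10, limma adjusted p = 0.0426), a call lost under repeated quantile normalization (log2 0.30) and with E14.5 neurons alone (log2 0.26). *Robo2* did not differ beyond its error, with 7.94 and 7.86 at E13.5 and 7.52 and 7.89 at E14.5 (log2 -0.03 ± 0.14, limma adjusted p = 0.914). *Robo4* read 4.23 and 4.01 at E13.5 and 4.09 and 3.85 at E14.5, 1.41-fold below the mdDA domain (log2 -0.50 ± 0.14, limma adjusted p = 0.0726), and it did not pass after centring on array medians or repeated quantile normalization (log2 -0.30 in both) or with E13.5 neurons alone (log2 -0.42).

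*Ntn1* was the only member called higher in both comparisons. It read 8.79 and 8.66 at E13.5 and 8.46 and 8.58 at E14.5, 1.43-fold above the mdDA domain (log2 0.52 ± 0.11, limma adjusted p = 0.0299). The latter call was lost under repeated quantile normalization (log2 0.31, limma adjusted p = 0.145, where the range over the settings that keep all arrays was 0.00916 to 0.145). *Ntng1* read 7.66 and 7.27 at E13.5 and 8.15 and 7.82 at E14.5, which overlapped the mdDA domain (log2 -0.43, limma adjusted p = 0.199) and lay well above the lateral arrays at 4.75 and 5.03. The dimmer *Ntng1* probe set read 6.30 and 6.21 at E13.5 and 6.58 and 7.25 at E14.5, a difference from the mdDA domain of the other sign that did not pass either (log2 0.49, limma adjusted p = 0.157).

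In all, 3 netrin receptor genes were called in the sorted neurons. *Unc5c* read 4.82 and 5.14 at E13.5 and 4.98 and 4.44 at E14.5, 2.02-fold below the mdDA domain (log2 -1.02 ± 0.18, limma adjusted p = 0.0195) and above both lateral arrays. *Unc5b* read 4.47 and 4.62 at E13.5 and 4.50 and 4.17 at E14.5, 1.42-fold below the mdDA domain (log2 -0.51 ± 0.13, limma adjusted p = 0.0566). It was the only member called lower in both comparisons, but this call was lost after centring on array medians (log2 -0.31), under repeated quantile normalization (log2 -0.33) and with E13.5 neurons alone (log2 -0.40). *Unc5d* read 6.17 and 6.24 at E13.5 and 5.79 and 6.46 at E14.5, 1.62-fold above the mdDA domain (log2 0.70 ± 0.21, limma adjusted p = 0.0822). The dimmer probe set of *Unc5d* gave a log2 difference of -0.10 (limma adjusted p = 0.802), so the sign of *Unc5d* depended on the probe set. Its call was also lost with E13.5 or E14.5 neurons alone (log2 0.74 and 0.66). *Unc5a* read 6.60 and 6.91 at E13.5 and 6.74 and 6.13 at E14.5 and overlapped the mdDA domain (log2 0.36, limma adjusted p = 0.276). *Dcc* read 9.34 and 9.19 at E13.5 and 8.99 and 9.09 at E14.5 and was not called (log2 -0.11, limma adjusted p = 0.552). *Neo1* was at 9.30 and 9.18 and at 9.20 and 9.25, above both mdDA arrays, with a log2 difference of 0.29 that did not pass (limma adjusted p = 0.130).

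Among the Eph receptors *Epha5* and *Ephb1* were higher in the sorted neurons, and *Epha3*, *Epha7* and *Ephb4* were lower. *Epha5*, a receptor for ephrin-A ligands, read 8.28 and 8.11 at E13.5 and 8.37 and 8.75 at E14.5, 2.20-fold above the mdDA arrays at 7.36 and 7.12 (log2 1.14 ± 0.17, limma adjusted p = 0.0127). All 4 sorted arrays were also above the lateral arrays. *Epha7* read 5.87 and 5.46 at E13.5 and 6.25 and 6.08 at E14.5 against 6.97 and 6.92 in the mdDA domain, 2.04-fold lower (log2 -1.03 ± 0.14, limma adjusted p = 0.0103). *Epha3* read 4.87 and 4.88 at E13.5 and 5.11 and 5.13 at E14.5, 1.87-fold lower (log2 -0.90 ± 0.16, limma adjusted p = 0.0199). Both EphA receptors were thus lower in the neurons than on any array of dissected tissue.

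*Ephb1* read 6.39 on both E13.5 arrays and 6.27 and 6.19 at E14.5, 1.79-fold above the mdDA domain (log2 0.84 ± 0.13, limma adjusted p = 0.0137) and below both lateral arrays. The dimmer probe set did not show this. It read 4.61 and 4.76 at E13.5 and 3.47 and 6.23 at E14.5 (log2 -0.13 ± 0.67, limma adjusted p = 0.924), and its 2 E14.5 arrays were 2.76 apart. *Ephb4*, the venous receptor for ephrin-B2, read 3.87 and 3.95 at E13.5 and 3.74 and 3.90 at E14.5 against 4.45 and 4.39 in the mdDA domain, 1.47-fold lower (log2 -0.55 ± 0.11, limma adjusted p = 0.0280), a call lost under repeated quantile normalization (log2 -0.35). All of these *Ephb4* values lay below the medians of their arrays. The endothelial markers moved with *Ephb4*, *Robo4* and *Unc5b* here: 6 of 9 were called lower, *Cdh5* among them (log2 -1.05), and the mean of the list ranged from 4.48 to 4.59 on the mdDA arrays and from 3.80 to 3.87 on the sorted arrays. The part of endothelial RNA in these 3 differences was not tested. *Epha4*, at 5.47 and 5.85 and at 6.42 and 5.94, overlapped the mdDA domain (log2 0.06, limma adjusted p = 0.889) and stayed below the lateral arrays. *Epha6*, at 4.24 and 4.51 and at 4.53 and 5.11, overlapped it as well (log2 -0.41, limma adjusted p = 0.216).

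**Figure D4:**
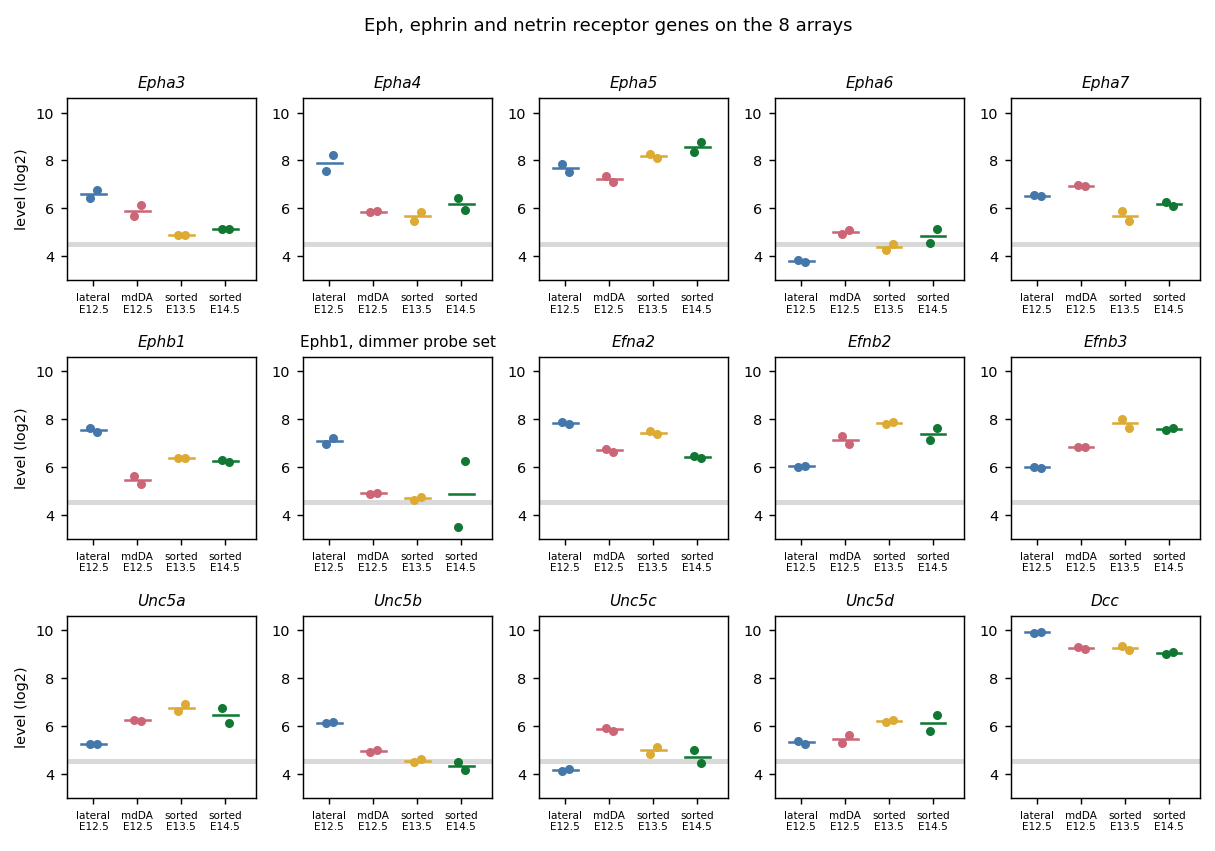
Log2 level (y axis) of Eph, ephrin and netrin receptor genes on each of the 8 arrays, by group (x axis). Points are single arrays, lines are group means of 2 arrays, and the grey band spans the array medians from 4.39 to 4.60. *Epha4* and *Ephb1* were highest in the lateral domain, *Epha5* and *Efnb3* in the sorted neurons, and the 2 E14.5 arrays of the dimmer *Ephb1* probe set lay 2.76 apart.

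Of the 8 ephrin genes only *Efnb3* was called in the sorted neurons. It read 8.03 and 7.64 at E13.5 and 7.53 and 7.65 at E14.5, 1.83-fold above the mdDA domain (log2 0.87 ± 0.13, limma adjusted p = 0.0139). *Efnb2* read 7.79 and 7.87 at E13.5 and 7.12 and 7.64 at E14.5 and overlapped the mdDA domain (log2 0.48, limma adjusted p = 0.138). For both genes the group mean was lowest in the lateral domain and highest in E13.5 neurons. None of the 5 ephrin-A genes passed. *Efna3* had the widest spread among them, with 5.76 and 4.24 on the E13.5 arrays.

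Read side by side, the calls of the 2 comparisons, which share the mdDA arrays, fell into a few patterns. *Slit1*, *Slit2*, *Slit3*, *Robo3* and *Unc5c* were higher in the mdDA domain than laterally and lower in sorted neurons than in the mdDA domain. *Epha6*, *Efnb2*, *Robo2*, *Ntng1* and *Unc5a* were higher in the mdDA domain and not called in the neurons, and all 4 sorted arrays of each lay above both lateral arrays. Most members had no overlap between sorted and lateral arrays, in either direction. *Epha4* and *Efna2* were lower in the mdDA domain and not called in the neurons. *Ephb1* was lower in the mdDA domain than laterally and higher in sorted neurons than in the mdDA domain. For *Ephb1* and *Unc5d* the call in the sorted neurons held on the brighter probe set only, as did that of *Ntng1* between the domains. *Epha5*, *Efnb3*, *Robo1* and *Unc5d* were called higher, and *Epha3*, *Epha7*, *Ephb4* and *Robo4* lower, in the comparison of sorted neurons and not in that of the domains, and the difference between the 2 contrasts was not tested. The other 16 members were called in neither comparison. Over all 23 members not called in the sorted neurons, the log2 difference from the mdDA domain lay between -0.43 for *Ntng1* and 0.48 for *Efnb2*.

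**Figure D5:**
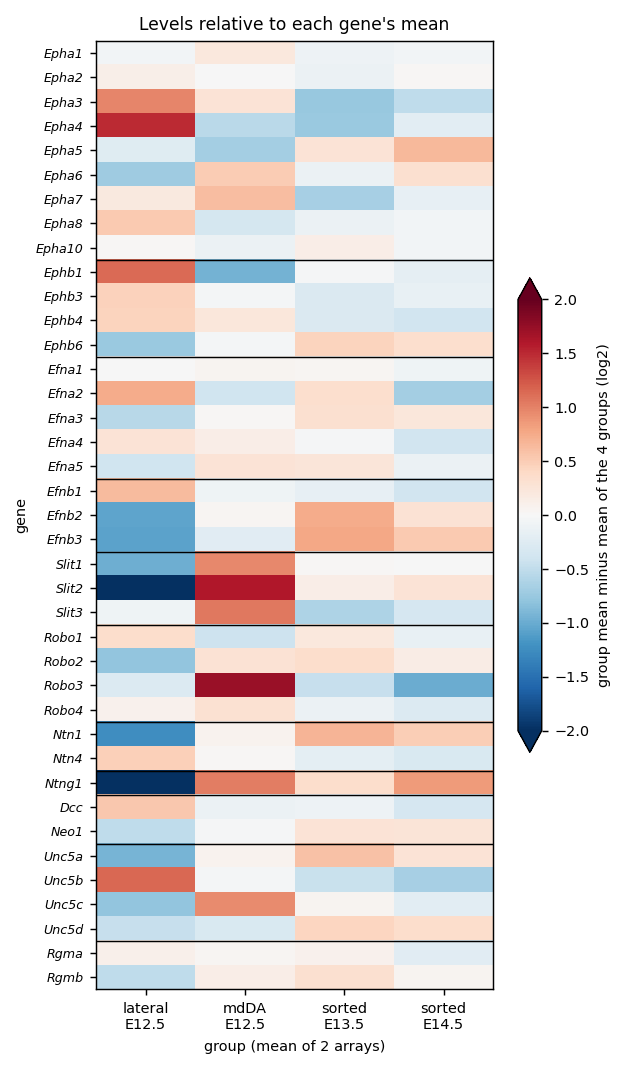
Group means of 2 arrays for the 39 genes (y axis, families divided by lines) in the 4 groups (x axis), each relative to the gene's mean over the groups, on a log2 colour scale from -2 to 2. *Slit2* and *Ntng1* were lowest in the lateral domain, *Robo3* was highest in the mdDA domain, and the Slit genes, *Robo3* and *Unc5c* were lower in the sorted neurons than in the mdDA domain.

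The calls in the sorted neurons rested most on the mdDA arrays. Without either mdDA replicate fewer members were called, and fewer of all probe sets as well, while leaving out a sorted array changed the calls less. None of the called differences changed sign in these 6 fits. The log2 difference ranged from -1.52 to -1.30 for *Slit2*, from -2.665 to -2.257 for *Robo3* and from 1.02 to 1.26 for *Epha5*.

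Between E13.5 and E14.5 sorted neurons no member was called by limma, and none of the 35556 probe sets either (0%). At an unadjusted p under 0.05 there were 2 members, *Efna2* and *Robo1*, and 2156 probe sets. A fit over all 8 arrays called 9 probe sets higher and 11 lower, none of them a member. *Efna2* read 7.50 and 7.39 at E13.5 and 6.46 and 6.37 at E14.5, 2.04-fold lower at the later stage without passing the adjustment (log2 -1.03 ± 0.13, limma adjusted p = 0.695). The E13.5 arrays lay between the 2 dissected domains and the E14.5 arrays below the mdDA domain, so that the mean of both stages, 6.93, described neither. *Robo1* was at 10.06 and 10.10 against 9.73 and 9.68 (log2 -0.38, limma adjusted p = 0.808). The other 37 members had log2 differences between -0.53 for *Robo3* and 0.52 for *Ntng1*.

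The partners and effectors of these pathways, such as adaptor proteins and regulators of small GTPases downstream of the receptors, were taken from a list of 50 genes of which 47 were analysed. In the mdDA domain 6 were higher than in the lateral domain and none lower, 12.8% of 47 beside the 2.62% of all probe sets, and the median difference of the list was 0.05. Among the brighter 17778 probe sets alone, 7 partners were higher and 3 lower, where 7.94% of those probe sets were called. *Chn2*, a Rac GTPase activating protein of the chimaerin family, read 5.96 and 5.86 in the lateral domain and 8.60 and 8.76 in the mdDA domain (log2 2.77 ± 0.16, limma adjusted p = 0.0301). *Ablim3*, an actin-binding LIM protein, was higher by 1.83, *Pdzrn3*, a ubiquitin ligase with PDZ domains, by 1.66, and *Flrt2*, a cell surface ligand of UNC5 receptors, by 1.63. *Trim67*, a DCC-interacting protein, was higher by 1.19, and *Lrrc4c*, the binding partner of netrin-G1, by 1.15, both named after their values were seen. Without the replicate block 4 partners were lower as well. With an array left out, most of the partner calls were lost, as were most calls over all probe sets.

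In the sorted neurons 9 of the 47 partners were higher and 7 lower than in the mdDA domain, 16 of 47 (34.0%) beside the 18.4% of all probe sets. Among the brighter 17778 probe sets alone, 9 partners were higher and 6 lower, where 32.5% of those probe sets were called. *Cbln4*, a secreted protein that binds netrin receptors, was higher by 1.71, *Dscam*, a netrin receptor, by 1.21, *Ablim3* by 1.05 and *Draxin*, a ligand of DCC, by 0.97. The lower ones with the largest differences were *Chn2* (log2 -1.13), *Myo10*, a motor protein that binds DCC (log2 -1.08), *Srgap3*, a Slit-Robo GTPase activating protein (log2 -1.03), and *Dock1*, a Rac activator (log2 -0.56). *Srgap3* ran from 10.49 and 10.57 in the lateral domain through 9.82 and 9.89 in the mdDA domain to values between 8.57 and 8.96 in the sorted neurons. After centring on array medians 15 partners were higher and 4 lower, where 20.7% of all probe sets were called and 75.8% of those calls were higher. Without either mdDA replicate, or without E13.5 replicate 2, fewer partners were called, and fewer of all probe sets as well. No partner was called between E13.5 and E14.5.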

How the data were processed

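The sources used here give no genome build for the arrays. For each probe set of 8 Affymetrix Mouse Gene 1.0 ST arrays the authors deposited a log2 value, obtained by RMA from the program Affymetrix Expression Console 1.2, normalized by the sketch-quantile method, per the labels and the study's methods. Tissue of both domains was fixed and stained before its RNA was extracted and amplified, whereas the neurons were sorted for GFP. The values were used as deposited, without a filter. The number of arrays limits the precision.

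Samples were grouped by the labels. The 2 domains were compared by a paired limma test (limma 3.58.1, R 4.3.3) with the replicate number as block, since the study names a paired test at a false discovery rate below 10% but not what defines the pairs. Deviations of same-numbered mdDA and lateral arrays from their group means correlated at -0.0147, and those of the other groups between -0.0374 and 0.0130, so the numbers do not show pairs. For the sorted neurons, the average of the 2 stages was set against the mdDA domain in a fit of all 8 arrays, and the stages were set against each other in a fit of their own 4 arrays, neither with a block. p-values were adjusted by Benjamini-Hochberg over all 35556 probe sets, of which 21789 have 1 gene symbol in the platform annotation. On simulated independent arrays with added changes, the fits were checked only for the mean size and the sign of the estimates. The simulation held no pairs and no spread between embryos.

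A gene with several probe sets (*Epha10*, *Ephb1*, *Ntng1* and *Unc5d*) is given by the brightest on average over all arrays. Any listed gene could be named, with up to 4 called partners per direction and up to 3 markers per list. The members and lists were chosen with earlier results of these data known. Alternatives were the fit with or without the block, all 8 arrays for each fit, a second quantile normalization, array medians set equal, leaving out dim probe sets, trend and robust priors, only probe sets with 1 symbol, the second probe set, each sorted stage alone, and leaving out each array. Start site windows are from RefSeq (GRCm38.p6). Tables and plots were made in Python 3.11.15 with numpy 2.4.6, pandas 2.3.3 and matplotlib 3.10.9.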

Additional observations from a re-analysis of the deposited data

How the results depend on the processing

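Between the domains, 11 members higher and 4 lower became 12 and 8 with all 8 arrays and no replicate block in the fit, and 17 and 9 among probe sets with 1 gene symbol, where 11.5% of the 21789 probe sets were called. On the same 4 arrays the fit with no replicate block gave 12 and 5. Leaving out an array, which also drops the block, leaves 1 array in a domain. Most calls of single genes were then lost, as were most calls over all probe sets, and none changed sign. Under the other alternatives 3 of 106 values of single genes lost their call and none reversed: *Efnb2* and *Robo3* under repeated quantile normalization and *Ntng1* on its second probe set.

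For sorted neurons against the mdDA domain, 6 higher and 10 lower became 11 higher and 8 lower after centring on array medians, where calls over all probe sets went from 3032 higher and 3500 lower to 5580 and 1782. Leaving out an array changed the calls most where it was an mdDA array, among the members and over all probe sets. With the replicate block the counts were 6 and 10. *Ephb1* (log2 -0.13) and *Unc5d* (log2 -0.10) reversed on their second probe sets. Another 12 of 128 values lost their call, all of *Ephb4*, *Ntn1*, *Robo1*, *Robo4*, *Unc5b* and *Unc5d*. E14.5 against E13.5 gave 0 members in every alternative, the replicate block included. The cause of these shifts was not tested. The block changed no other count of member calls by over 1.5 times.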
